A study of Drosophila melanogaster with 6 samples.

Results

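Acetylcholine is the main excitatory transmitter of the insect central nervous system. It is made from choline and acetyl-CoA by choline acetyltransferase (ChAT), loaded into synaptic vesicles by the vesicular acetylcholine transporter (VAChT) and, after release, split by acetylcholinesterase (Ace), whereupon choline is taken back into the terminal by the choline transporter ChT. The released transmitter acts on nicotinic receptors, which are ion channels, and on muscarinic receptors such as mAChR-A and mAChR-B, which signal through G proteins. ChAT and VAChT form the cholinergic locus of the fly, in which both genes share a start and VAChT is nested inside ChAT.

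These 6 genes were looked up among the probe sets that the platform annotation assigns to 1 gene alone. ChAT had 2 probe sets, 142522_at and 151604_s_at, and ChT (151892_at), Ace (152974_at) and mAChR-B (149472_at) had 1 each. These are 5 of the 13966 probe sets that were not controls, and 4 of the 10844 genes named on the arrays. No probe set was named for VAChT or mAChR-A, so neither gene is reported here. In the RefSeq gene table (Release 6 assembly, used for names and neighbourhood only), ChAT and VAChT overlapped and began at the same base on chromosome arm 3R, and 3 protein-coding genes lay between ChT and ChAT on that arm. Ace and mAChR-B also lie on 3R.

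The arrays held total RNA of sorted Drosophila melanogaster cells. All sorts used a dsRed1 reporter placed under 2.1 kb of promoter from Gad1, whose enzyme makes the inhibitory transmitter GABA. EC_pos comprised 4 arrays (a to d) of fluorescent cells sorted from embryonic cultures. LB_pos was 1 array of fluorescent cells sorted from larval central nervous tissue (brain and ventral nerve cord), and LB_neg was 1 array of the non-fluorescent cells from that sort. The fluorescent fractions are thus defined by activity of a promoter fragment, not by transmitter. The ages of the embryos and larvae and the identity of the culture replicates are not given in the labels, so spread among the EC_pos arrays may be technical, and larval values have no replicates. Embryonic origin and culture differ together from larval origin and tissue, and their effects cannot be told apart.

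Median intensities lay between 181.5 (LB_neg) and 229.4 (LB_pos). EC_pos array a stood apart, with Pearson's r between 0.588 and 0.707 to the other EC_pos arrays, which correlated pairwise between 0.908 and 0.944, and with the highest ratio of 3' to 5' control probe sets of any array (866 for GAPDH, against 15.3 to 42.4 on EC_pos b, c and d). Fitted results are therefore given with and without it. Gad1 itself (143478_at) was at 31.5 ± 7.94 in EC_pos (SD, n = 4), 54.8 on LB_pos and 22.0 on LB_neg, too dim to be tested. The fluorescent label was therefore not borne out by a bright Gad1 signal in any group.

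The transmitter-making enzyme was read by both of its probe sets on every array. ChAT probe set 151604_s_at had intensities of 601.2, 1490.4, 747.7 and 1122.0 on EC_pos a, b, c and d, 3111.1 on LB_pos and 937.7 on LB_neg. LB_pos lay above every EC_pos array, and LB_neg lay inside the EC_pos range. ChAT probe set 142522_at had 2776.5, 746.2, 491.3 and 450.8 on EC_pos a to d, 1099.2 on LB_pos and 440.3 on LB_neg. Here LB_pos exceeded EC_pos b, c and d but not array a, and LB_neg lay just below the dimmest EC_pos array.

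The ChAT probe sets disagreed on array a. Relative to the mean of EC_pos b, c and d on the scale of log2(intensity + 53.6), array a was 2.23 units higher at 142522_at and differed by -0.79 at 151604_s_at. Across all 6 arrays the log2 intensities of these probe sets had a Pearson's r of -0.08, and across the 5 arrays without array a an r of 0.93. The arrays share scaling and labelling, and these coefficients are descriptions. Array a is also the array with the extreme 3' to 5' ratios, and the part of RNA quality in the disagreement was not tested. The position of each probe set along the ChAT transcripts, and whether 151604_s_at also matches the overlapping VAChT transcripts, is not given in the sources used here.

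The reuptake step was brightest on LB_pos, as was ChAT 151604_s_at. ChT, which returns choline to the cholinergic terminal, had intensities of 640.9, 1181.6, 770.7 and 622.0 on EC_pos a to d, 1698.9 on LB_pos and 395.6 on LB_neg. LB_pos was above and LB_neg below all 4 EC_pos arrays, an order seen at 2.38% of the 9635 tested probe sets and, among the cholinergic probe sets, at ChT alone. ChT was also the steadiest of these probe sets across EC_pos, where the brightest array was 1.90 times the dimmest. The same ratio was 2.48 for ChAT 151604_s_at, 2.87 for Ace, 4.21 for mAChR-B and 6.16 for ChAT 142522_at. Over b, c and d alone it was 1.66 for ChAT 142522_at, below the 1.90 of ChT.

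The degrading enzyme had another order. Ace, which ends the signal by hydrolysing acetylcholine, had 275.1, 617.2, 215.1 and 362.5 on EC_pos a to d, 306.3 on LB_pos and 111.5 on LB_neg. LB_pos lay inside the EC_pos range, and LB_neg lay below all 4 EC_pos arrays. The brightest array of the set was EC_pos b for Ace, whereas for ChAT 151604_s_at and ChT it was LB_pos.

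The muscarinic receptor was dim. The mAChR-B probe set, for a receptor coupled to G proteins, had 104.9, 32.2, 64.3 and 24.9 on EC_pos a to d, 38.0 on LB_pos and 26.7 on LB_neg. Only EC_pos a and c exceeded 53.6, the 25th percentile of all intensities, and no array reached the 197.35 (the pooled median) required on at least 1 array for testing. Both larval arrays lay inside the EC_pos range. Whether these dim values differ from an unbound probe set was not tested, since no detection calls were used here.

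**Figure D1:**
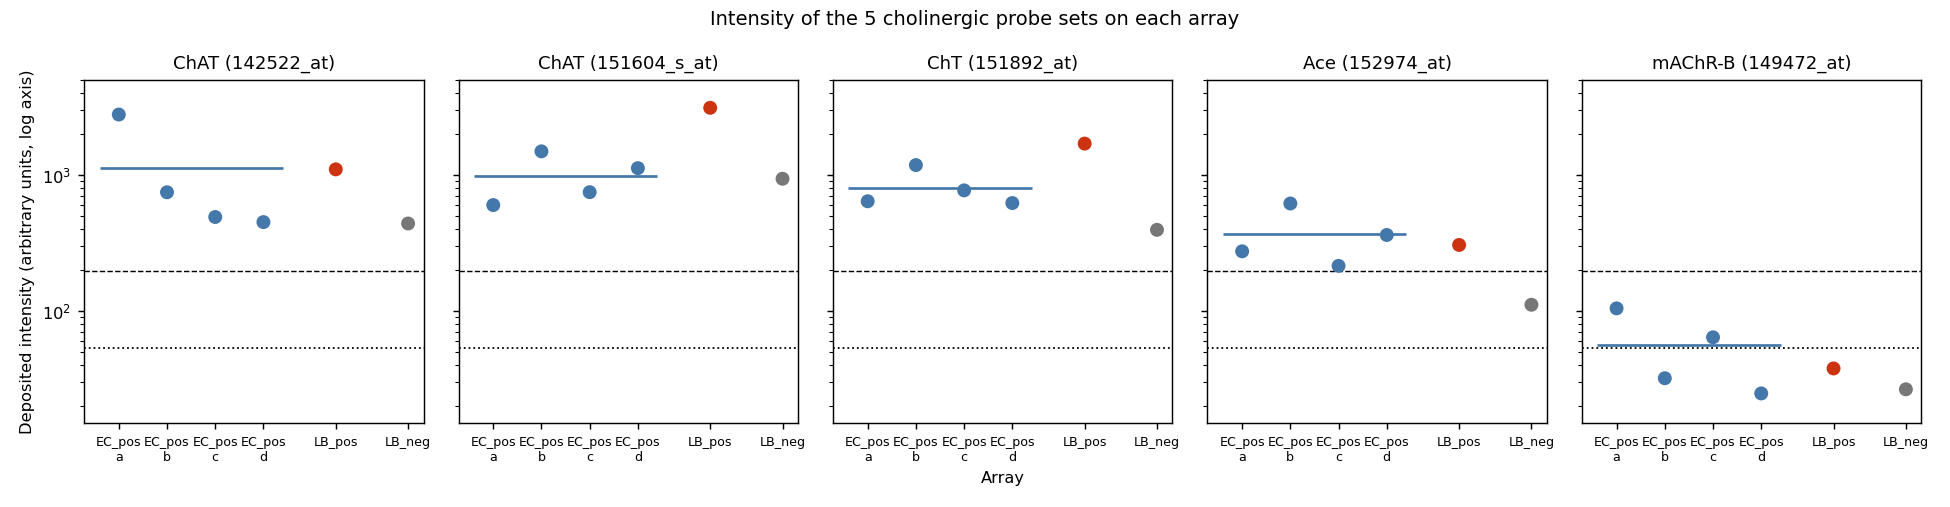
Deposited intensity (log axis) of the 5 probe sets on each array; blue points are EC_pos arrays a to d with their arithmetic mean as a line, red is LB_pos and grey is LB_neg. The dotted line is the 25th percentile (53.6) and the dashed line the pooled median (197.35). LB_pos is the brightest array for ChAT 151604_s_at and ChT, array a for ChAT 142522_at and mAChR-B, and array b for Ace.

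The larval fractions were compared to see how reporter-expressing cells differ from the rest of the same tissue. ChAT, ChT and Ace were all brighter on LB_pos than on LB_neg. The LB_pos intensity was 4.29 times that of LB_neg for ChT, 3.32 and 2.50 times for ChAT 151604_s_at and 142522_at, and 2.75 times for Ace. After transformation to log2(intensity + 53.6), where dim probe sets show smaller differences, LB_pos minus LB_neg was 1.96 for ChT, 1.67 and 1.22 for the ChAT probe sets, and 1.12 for Ace. All 4 tested cholinergic probe sets were thus at least 1 unit higher on LB_pos, beside 11.8% of all tested probe sets, and 7.38% were at least 1 unit lower. The dim mAChR-B differed by 0.19.

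With 1 array per fraction these differences have no test. Of the 9635 tested probe sets, 1848 were at least 1 unit apart between the larval arrays. Pairs of EC_pos arrays had 3814 to 4502 with array a, and 711 to 1261 among b, c and d. Between pairs of EC_pos arrays the differences of the same probe set were smaller than the larval one in 6 of 6 pairs for ChT and for ChAT 151604_s_at, in 5 of 6 for Ace and in 3 of 6 for ChAT 142522_at. How often other tested probe sets reach such counts was not computed, so the counts are a description only. The largest EC_pos pair difference was 2.49 for ChAT 142522_at, which involves array a, and 0.67 without it. For Ace it was 1.32, between b and c. Scaling shifted all larval differences, the median of the tested probe sets being 0.11 as deposited, -0.02 under quantile normalization and -0.19 when array medians were equalized. With equal medians, 2 of the 4 cholinergic probe sets were at least 1 unit higher (ChT at 1.64 and ChAT 151604_s_at at 1.35), beside 7.1% of all, with ChAT 142522_at at 0.91 and Ace at 0.85. Under quantile normalization 3 were, beside 8.47% of all, with Ace at 0.87. All 4 differences stayed positive under both scalings. With the offset at the 50th percentile of intensities 3 of 4 reached 1 unit, and Ace was at 0.71. Control probe sets gave 3' to 5' ratios of 40.1 on LB_pos and 120.3 on LB_neg for eIF-4a, 8.90 on LB_pos and 19.5 on LB_neg for GAPDH, and 58.3 on LB_pos and 29.5 on LB_neg for actin, and the part of RNA quality in the larval differences was not tested. In bulk RNA, more cholinergic cells and more RNA per cell cannot be told apart.

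Genes around the cholinergic synapse, taken from lists chosen with earlier results of these data known, were read next to the same larval pair. Of all tested probe sets, 11.8% were at least 1 unit higher on LB_pos and 7.38% at least 1 unit lower. Of 8 tested nicotinic receptor subunits, the ion channel side of acetylcholine signalling, 4 were at least 1 unit higher on LB_pos and 1 at least 1 unit lower (median 0.94). The furthest apart were nAChRalpha3 at 2.58, nAChRbeta1 at 2.50 and nAChRalpha4 at -1.07. Genes for choline and acetyl-CoA handling and related steps were mixed, with 1 of 7 tested at least 1 unit higher and 0 lower (median 0.11). In that list Ctl2, a choline transporter-like protein, was at 684.4 on LB_pos and 251.6 on LB_neg (1.27), eas, an ethanolamine kinase, at 469.3 on LB_pos and 815.1 on LB_neg (-0.73), and Pcyt1, of phosphatidylcholine synthesis, at 2089.1 on LB_pos and 1305.5 on LB_neg (0.66). The third muscarinic receptor gene, mAChR-C, was dim, at 93.5 on LB_pos and 77.4 on LB_neg.

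Transcription factors linked to cholinergic fate did not show the pattern of the enzyme. The POU factor acj6, which regulates ChAT in fly olfactory neurons, was at 223.9 on LB_pos and 204.7 on LB_neg (0.10). The homeodomain factors unc-4 and ap were at 79.5 on LB_pos against 192.1 on LB_neg (-0.88) and at 255.1 on LB_pos against 542.3 on LB_neg (-0.95). The unc-4 probe set was bright enough for testing on EC_pos array a alone (473.0). Of 5 tested genes of muscarinic signalling, 0 were at least 1 unit higher on LB_pos and 1 was lower (median -0.35). Galphai, a G protein subunit, was at 553.3 on LB_pos and 1598.0 on LB_neg (-1.44), the inositol trisphosphate receptor Itpr at 197.8 on LB_pos and 81.6 on LB_neg (0.89), and the phospholipase Plc21C at 206.2 on LB_pos and 287.7 on LB_neg (-0.39).

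Vesicular transporters of other transmitters were set beside ChAT and ChT. The transporter portabella (prt) was at 532.1 on LB_pos and 44.5 on LB_neg (2.58), the monoamine transporter Vmat at 3108.7 on LB_pos and 773.2 on LB_neg (1.94), and the glutamate transporter VGlut at 173.7 on LB_pos and 105.8 on LB_neg (0.51). The prt probe set was bright enough for testing on LB_pos alone, and VGlut on EC_pos array c alone (206.6). The GABA transporter VGAT, named here to complete the list after its values were seen, was at 737.7 on LB_pos and 739.7 on LB_neg.

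Markers of cell types moved between the larval fractions as well. The counts stand beside 11.8% of all tested probe sets at least 1 unit higher on LB_pos and 7.38% at least 1 unit lower. Of 4 tested neuron markers, 3 were at least 1 unit higher on LB_pos (nrv3 at 1.43, futsch at 1.27 and nSyb at 1.19) and 1 was lower, the pan-neuronal RNA-binding protein elav at -1.65. The summed intensity of the 6 neuron markers on the array was 8743 on LB_pos and 7747 on LB_neg, and without elav, the brightest of them on LB_neg, 7203 on LB_pos and 2807 on LB_neg. Of 6 neuroblast markers, 3 were at least 1 unit lower (ase at -1.66, mira at -1.39 and wor at -1.27) and 0 higher, with summed intensities of 4977 on LB_pos and 11044 on LB_neg. The ase probe set was bright enough for testing on LB_neg alone (305.3, against 60.0 on LB_pos). Of 5 glial markers, 1 was at least 1 unit lower, the glial determinant gcm at -2.84, with sums of 1572 on LB_pos and 5166 on LB_neg, and of 1072 on LB_pos and 1252 on LB_neg without gcm. Of 4 epidermis markers 2 were at least 1 unit higher (sums of 1499 on LB_pos and 924 on LB_neg), of 5 hemocyte markers 3 were lower (1219 on LB_pos and 2567 on LB_neg), and of 4 muscle markers 1 was lower (469 on LB_pos and 636 on LB_neg). The part of these cell types in the cholinergic differences was not tested.

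**Figure D2:**
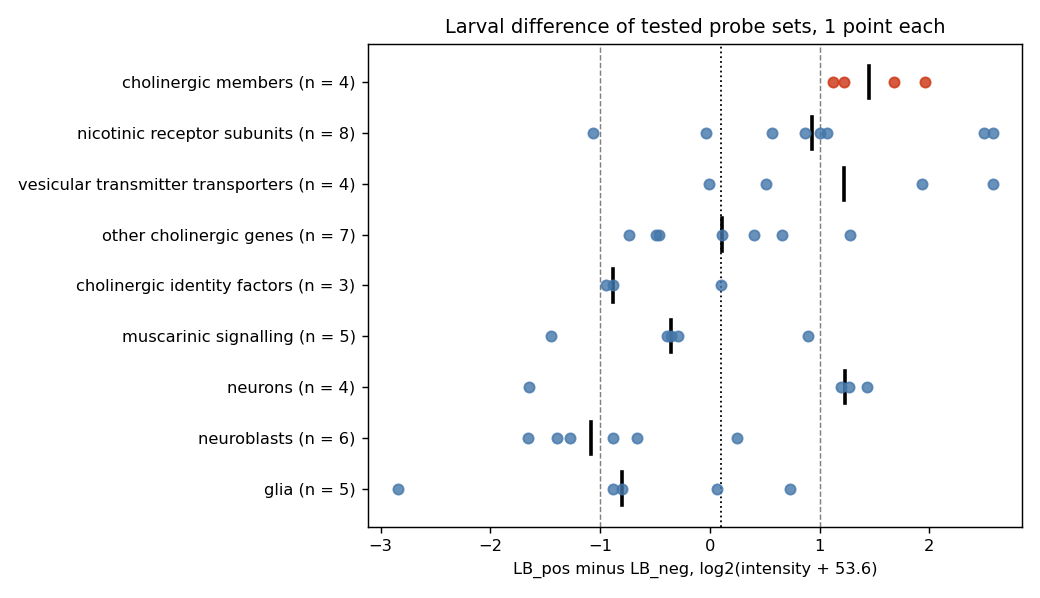
LB_pos minus LB_neg on the scale of log2(intensity + 53.6), 1 point for each tested probe set, with the list's median as a black bar. Red points are the 4 tested cholinergic probe sets (1.12 to 1.96), blue points the other lists, each gene by its brightest probe set. Dashed lines mark 1 unit in each direction and the dotted line the median of all tested probe sets (0.11).

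The fluorescent fraction of embryonic culture was then compared with both larval arrays in a fit over all tested probe sets. No cholinergic probe set passed limma's test at an adjusted p under 0.05 against either larval array with all 4 EC_pos arrays, where 3 of 9635 probe sets (0.0311%) passed against LB_pos and 52 (0.54%) against LB_neg. At an unadjusted p under 0.05, 1 of 4 cholinergic probe sets passed against LB_pos, beside 13.5% of all, and 0 of 4 against LB_neg, beside 17.4%. The fitted differences share the EC_pos arrays, and their spread comes from EC_pos alone, with each larval array assumed to vary like it. The median fitted difference of the tested probe sets was -0.24 for EC_pos minus LB_pos and -0.11 for EC_pos minus LB_neg.

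ChAT 151604_s_at averaged 990 ± 399 in EC_pos (SD, n = 4) against 3111.1 on LB_pos, a log2 difference of -1.68 ± 0.61 (SE, 95% interval -3.14 to -0.22, limma adjusted p = 0.334), lower on 4 of 4 EC_pos arrays. A value of LB_pos above all 4 EC_pos arrays was seen at 34.7% of tested probe sets. Without array a the difference was -1.48 ± 0.42 with a limma adjusted p of 0.0499, the 1 cholinergic call in that fit, which called 14.1% of all probe sets against LB_pos (5.49% as lower) and 23.2% against LB_neg. At an unadjusted p under 0.05 that fit had 3 of the 4 cholinergic probe sets against LB_pos, beside 32.8% of all, and 2 of 4 against LB_neg, beside 36.2%. Against LB_neg the same probe set differed by -0.01 ± 0.61 (95% interval -1.47 to 1.46, limma adjusted p = 0.998), an interval that leaves room for a difference of more than 1 unit either way.

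ChAT 142522_at averaged 1116 ± 1115 in EC_pos, an SD set by array a, against 1099.2 on LB_pos, and the log2 difference was -0.38 ± 0.97 (95% interval -2.68 to 1.93, limma adjusted p = 0.897). Without array a EC_pos averaged 563 ± 160 (SD, n = 3), and the difference was -0.93 ± 0.40 (limma adjusted p = 0.150). Array a thus moved this value by more than its SE without array a. Against LB_neg the difference was 0.85 ± 0.97 with all arrays and 0.29 ± 0.40 without array a (limma adjusted p = 0.734 and 0.653).

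ChT averaged 804 ± 260 in EC_pos, against 1698.9 on LB_pos and 395.6 on LB_neg. The log2 difference was -1.08 ± 0.54 against LB_pos (95% interval -2.35 to 0.20, limma adjusted p = 0.439) and 0.89 ± 0.54 against LB_neg (95% interval -0.39 to 2.17, limma adjusted p = 0.466). Both directions were shown by 4 of 4 EC_pos arrays. Without array a the values were -0.99 and 0.97 (limma adjusted p = 0.143 and 0.133), so ChT was not called in either fit.

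Ace averaged 367 ± 177 in EC_pos, against 306.3 on LB_pos and 111.5 on LB_neg. The log2 difference was 0.14 ± 0.61 against LB_pos (95% interval -1.32 to 1.60, limma adjusted p = 0.943) and 1.26 ± 0.61 against LB_neg (95% interval -0.20 to 2.72, limma adjusted p = 0.357), higher on 4 of 4 EC_pos arrays. LB_neg lay below all 4 EC_pos arrays at 24.7% of tested probe sets. Without array a, Ace differed from LB_neg by 1.35 ± 0.54 (limma adjusted p = 0.111). In a fit without the brightness filter mAChR-B differed by 0.21 ± 0.45 from LB_pos and by 0.40 ± 0.45 from LB_neg (limma adjusted p = 0.893 and 0.812).

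**Figure D3:**
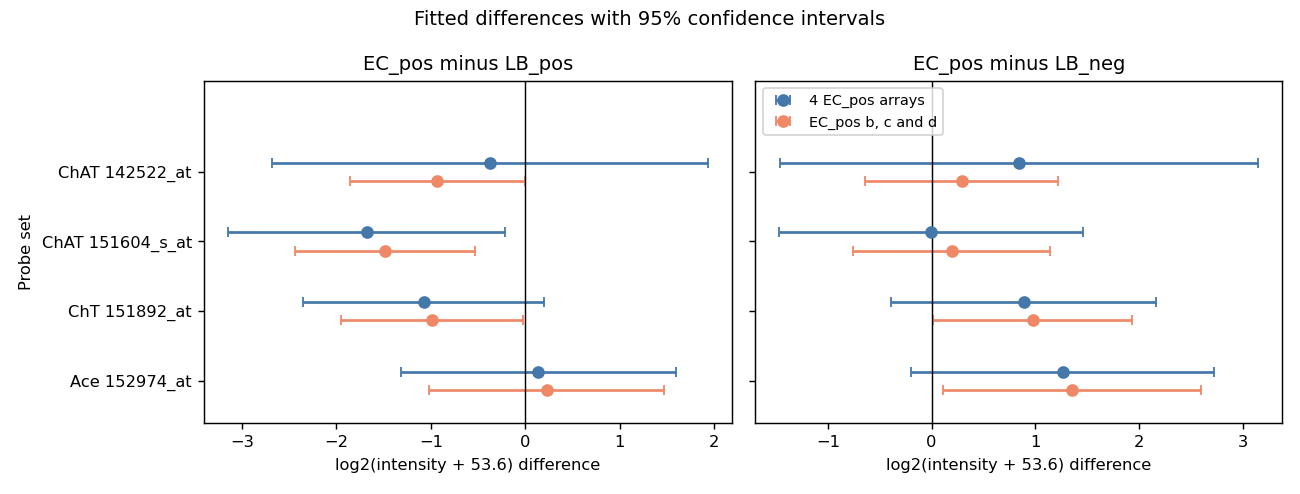
Fitted differences of the 4 tested cholinergic probe sets with 95% confidence intervals, in log2(intensity + 53.6), for EC_pos minus LB_pos (left) and EC_pos minus LB_neg (right). Blue uses all 4 EC_pos arrays and orange b, c and d alone. The interval of ChAT 142522_at narrows most without array a, and ChAT 151604_s_at lies below 0 against LB_pos in both fits.

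Other cholinergic genes were read in the same fits. With all arrays, 0.0311% of all tested probe sets passed limma's test against LB_pos and 0.54% against LB_neg. Of 8 tested nicotinic subunits, 0 passed against either larval array, with a median difference of -1.21 for EC_pos minus LB_pos. Without array a, 3 were lower in EC_pos than on LB_pos, nAChRbeta1 (-1.87, limma adjusted p = 0.0205), nAChRalpha5 (-1.48, 0.0422) and nAChRalpha3 (-1.93, 0.0480), and nAChRalpha4 was lower than on LB_neg (-2.34, 0.00528). With all arrays the limma adjusted p-values of these 4 differences lay between 0.278 and 0.634. Of all probe sets, the fit without array a called 5.49% as lower and 8.61% as higher against LB_pos. Against LB_neg it called 10.6% as lower and 12.6% as higher. AcCoAS, which makes acetyl-CoA from acetate, was at 6085 ± 3310 in EC_pos (SD, n = 4), against 1232.1 on LB_pos and 1138.6 on LB_neg. It passed limma's test as higher in EC_pos without array a (1.79 over LB_pos, limma adjusted p = 0.0159, and 1.90 over LB_neg, 0.00787). With all arrays the differences were larger, at 2.11 over LB_pos and 2.22 over LB_neg, but did not pass (limma adjusted p = 0.312 and 0.191). The G protein subunit Galphaq was lower in EC_pos than on both larval arrays without array a (-1.88 against LB_pos, limma adjusted p = 0.0410, and -2.17 against LB_neg, 0.0167), with adjusted p-values of 0.641 and 0.525 with all arrays. In the other lists the fit without array a called Pcyt1 as higher in EC_pos than on LB_neg (1.45, limma adjusted p = 0.0359), ap as lower than on LB_neg (-1.87, 0.0263) and prt as lower than on LB_pos (-2.59, 0.0101). None of these passed with array a included (limma adjusted p = 0.269, 0.419 and 0.138). The prt probe set was bright enough for testing on LB_pos alone (532.1), with 13.8 to 59.4 on the EC_pos arrays and 44.5 on LB_neg.

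Cell type markers differed along this comparison too. Muscle markers had summed intensities between 1956 and 9729 on the EC_pos arrays, against 469 on LB_pos and 636 on LB_neg. Without array a, 3 of 4 tested muscle markers passed limma's test as higher in EC_pos against each larval array, and sls, the other one, was at -1.51 against LB_pos and -1.54 against LB_neg (limma adjusted p = 0.142 and 0.121). In that fit 2 of 4 epidermis markers were higher than on LB_pos and 3 of 4 higher than on LB_neg, and 2 of 5 hemocyte markers were higher and 1 lower than on LB_pos and 2 lower than on LB_neg. Of the neuroblast markers 2 of 6 were lower than on LB_pos and 4 of 6 lower than on LB_neg, and 1 of 4 neuron and 1 of 5 glial markers were lower in each comparison. Of all probe sets that fit called 8.61% as higher and 5.49% as lower against LB_pos, and 12.6% as higher and 10.6% as lower against LB_neg. Neuron markers summed to between 1588 and 6041 on the EC_pos arrays, against 8743 on LB_pos and 7747 on LB_neg, with array a the lowest. Without elav the sums were 1528, 5376, 1905 and 2043 on EC_pos a to d, against 7203 on LB_pos and 2807 on LB_neg. EC_pos b then lay above LB_neg. Sums on the EC_pos arrays lay between 1346 and 2073 for neuroblast markers, 1242 and 1660 for glia, 2118 and 5157 for hemocytes, and 1112 and 10474 for epidermis. Without Col4a1 the hemocyte sums were 2920, 558, 527 and 502 on EC_pos a to d. The larval sums without it were 622 on LB_pos and 1704 on LB_neg. Without gcm the glial sums were 1180 to 1607 on the EC_pos arrays, 1072 on LB_pos and 1252 on LB_neg. With all arrays, 1 marker passed, gcm, at 79.5 ± 47.6 in EC_pos (SD, n = 4) against 3914.1 on LB_neg (-4.96, limma adjusted p = 0.0374). The fit with all arrays called 0.0311% of all tested probe sets against LB_pos and 0.54% against LB_neg. The gcm probe set was bright enough for testing on the larval arrays alone. The part of these cells in the cholinergic values was not tested.

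**Figure D4:**
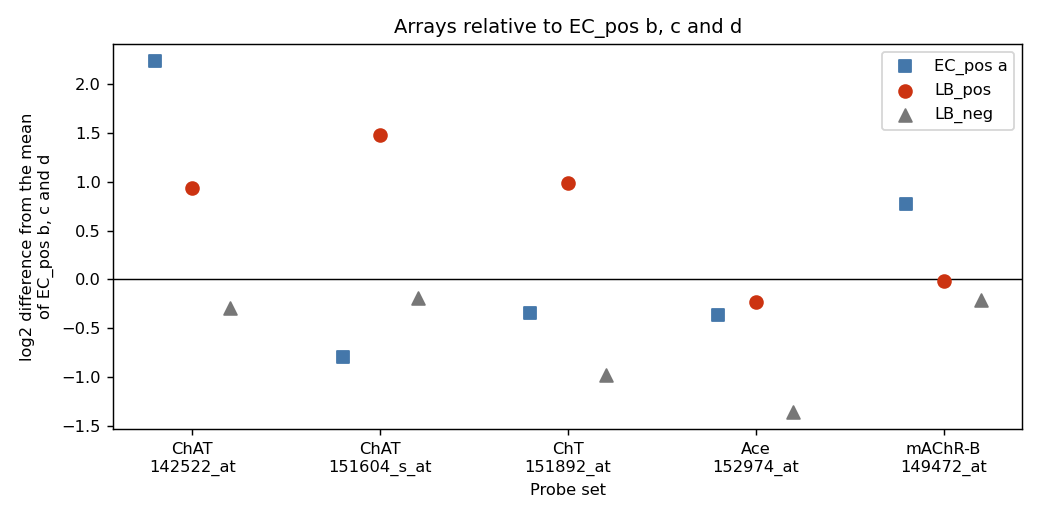
Difference of EC_pos array a, LB_pos and LB_neg from the mean of EC_pos b, c and d for each cholinergic probe set, in log2(intensity + 53.6). Array a is at 2.23 for ChAT 142522_at and at -0.79 for ChAT 151604_s_at, whereas LB_pos is above 0 at both (0.93 and 1.48) and LB_neg below 0 at both (-0.29 and -0.19).

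Patterns across arrays were compared with those of 7891 other named, tested genes by Pearson's r of log2 intensities, as a description. The 3 genes most like ChAT 151604_s_at over 6 arrays were tau, which binds microtubules (0.998), Rad9, a DNA damage checkpoint gene (0.980), and CG4679 (0.975). Without array a, tau was again the most similar (0.9999 over 5 arrays), followed by CG13893 and Fer3. The tau probe set was at 73.5, 172.1, 99.5 and 140.5 on EC_pos a to d, 298.4 on LB_pos and 119.9 on LB_neg. Both tau and Rad9 were bright enough for testing on LB_pos alone. Genes most like ChAT 142522_at were Dph3 (0.9985), Snm1 (0.995) and ftz-f1 (0.993), all brightest on array a. Without array a they were Gabat, which degrades GABA (0.9997), sens-2 and CG31140, so no gene was in both lists. Snm1 and ftz-f1 were bright enough for testing on array a alone, and sens-2 on LB_pos alone.

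For ChT the most similar genes over 6 arrays were CG6770 (0.992), CG44837 (0.9875) and the neuropeptide gene ITP (0.984). Without array a they were the neuropeptide gene FMRFa (0.9995), CG6770 (0.9988) and the Hox gene Dfd (0.9976). For Ace they were CG32262 (0.975), RNaseZ (0.967) and GstD6 (0.963), and without array a GstD6 (0.9967), Miga and mRpS29. With 5 or 6 arrays in 3 groups, many genes reach high coefficients. Among the cholinergic probe sets themselves, ChAT 151604_s_at and ChT had an r of 0.78 over 6 arrays and 0.81 without array a. The values were 0.27 and 0.94 for ChAT 142522_at and ChT, and 0.64 and 0.65 for Ace and ChT. Ace had 0.21 and 0.47 with ChAT 142522_at, and 0.36 and 0.41 with ChAT 151604_s_at.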

How the data were processed

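Total RNA of sorted cells was measured on 6 one-colour arrays. The table deposited by the authors holds linear intensity values, 1 for each of 14010 probe sets on each array. How they were computed is not given in the sources used here. The mean of the deposited intensities without the lowest and highest 2% was 500.063 to 500.083 on every array, so they were used without further scaling. The 44 control probe sets were set aside.

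Intensities were transformed as log2(intensity + 53.6), the 25th percentile, and probe sets above 197.35 (the pooled median) on at least 1 array were tested. A probe set could thus be tested because of 1 bright array, and its difference from that array is then partly selected for. Genes came from the platform annotation (12443 probe sets with 1 gene, of which 12394 matched the RefSeq table by gene ID). Each listed gene other than the cholinergic ones was represented by its brightest probe set. Group means were fitted with limma 3.58.1 (R 4.3.3), eBayes with trend and Benjamini-Hochberg adjustment over all tested probe sets, with 3 residual degrees of freedom, all from EC_pos. The script was tested on simulated data with the spread of EC_pos b, c and d, and thus not with that of array a. The larval arrays were compared by their difference alone. Named genes were all cholinergic probe sets, Gad1, the 3 genes most like each tested cholinergic probe set, and from each list those that passed a test or else the 3 furthest apart in the larval pair. Genes that passed a test only without array a, and nSyb, sls and Col4a1, were named after their values were seen. Cell type markers were not named for passing only then. The members and lists were chosen with earlier results of these data known. The number of arrays limits the precision. Alternatives were other offsets, no filter, quantile and common-median scaling, eBayes without trend, array weights and leaving out each EC_pos array.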

Additional observations from a re-analysis of the deposited data

Results flagged for a closer look

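The intensity of ChAT 142522_at on EC_pos array a, 2776.5, lay far from the other EC_pos arrays (450.8 to 746.2). Its gap to the nearest array was 0.873 of the group's range, above Dixon's 95% critical value for 4 arrays. After transformation to log2(intensity + 53.6) the gap was 0.733 of the range, below that critical value. Chance alone passes this limit in about 1 in 20 groups, and 5 probe sets were examined.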

How the results depend on the processing

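Counts of called probe sets depended on the EC_pos arrays. For EC_pos minus LB_pos, limma called 3 as reported, 12 with the offset at the 10th percentile, 0 at the 50th (1400 at an unadjusted p under 0.05), 6 without the filter, 7 after quantile normalization, 648 with array weights, and 0 to 1359 when single arrays were left out. For EC_pos minus LB_neg it called 52, then 161 and 7 with those offsets, 1339 with weights, and 0 to 2231 with single arrays left out. In both, 0 came from leaving out b, c or d (780 to 866 against LB_pos and 1149 to 1216 against LB_neg at an unadjusted p under 0.05), and the highest count from leaving out a. Probe sets at least 1 unit apart between LB_pos and LB_neg numbered 1848, and 816 with the offset at the 50th percentile. Their split into higher and lower was 1137 and 711 as deposited, 809 and 925 under quantile normalization, and 671 and 1344 with equal array medians. The count of cholinergic probe sets called, over both contrasts, was 0 and reached 0 to 1 with single arrays left out, the 1 being ChAT 151604_s_at without array a. Its adjusted p against LB_pos ranged from 0.0499 to 0.621 over 11 alternatives. The sign turned for 2 near-zero values, for which the cause was not tested. Ace, EC_pos minus LB_pos, was -0.11 to 0.33 with single arrays left out. ChAT 151604_s_at, EC_pos minus LB_neg, was 0.0045 with the offset at the 50th percentile, 0.0687 after quantile normalization, 0.11 with weights, and -0.22 to 0.19 with single arrays left out. Of 88 alternative fitted values for single cholinergic probe sets, 81 kept direction and call. Of 20 alternative larval differences, all positive, 4 fell under 1 unit: Ace at 0.71 with the offset at the 50th percentile, 0.87 under quantile normalization and 0.85 with equal medians, and ChAT 142522_at at 0.91 with equal medians. No paired analysis was possible because the groups share fewer than 2 replicate labels.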
